A study of Peromyscus maniculatus with 16 samples.

Results

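Bile acids are made from cholesterol in hepatocytes by a chain of hydroxylases, joined to taurine or glycine, and pumped across the canalicular membrane into bile together with phospholipid. Most of the pool returns from the gut and is taken back up from portal blood by hepatocytes, and it feeds back on its own synthesis through the nuclear receptor FXR and the repressor SHP. Transcript levels of the enzymes and carriers of this cycle were read here in the liver of deer mice (Peromyscus maniculatus). A set of 10 genes was followed, chosen by their role in this cycle but with earlier results of these data known. The set held the hydroxylases Cyp7a1, Cyp7b1, Cyp8b1 and Cyp27a1, the conjugating enzyme Baat and the canalicular pumps Abcb11, Abcc2 and Abcb4. It also held the basolateral uptake carrier Slc10a1 and the repressor gene Nr0b2. Of the set, 10 of 10 were among the 16910 genes of the count table and among the 12639 genes that were tested.

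Livers came from 16 animals in 3 groups. Group C (n = 6) received regular diet for 28 weeks. Groups NS (n = 5) and S (n = 5) both received a high-fat diet (HFD) for 28 weeks. They were separated by liver histology, NS without and S with steatosis, the accumulation of fat in hepatocytes. All 16 animals were 10 months old. The animals were genetically variable and belonged to 2 closed stocks, 13 to BW (P. m. bairdii) and 3 to SM2 (P. m. sonoriensis), with 1 SM2 animal in each group. All C and NS animals were male, whereas S held 3 females and 2 males, so sex and steatosis are partly entangled in any comparison with S. The 3 females were all BW. In BW animals alone, S was thus 3 females and 1 male, set against males only.

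Between 4640733 and 11349971 reads were counted per library. Levels are given as CPM, counts scaled to a common library size, after TMM correction, which compares a gene between animals but not genes with each other. Fold changes come from edgeR's quasi-likelihood test fitted on all 16 animals, with Benjamini-Hochberg adjustment over all tested genes, and a gene was called at an adjusted p below 0.1 and a fold change of at least 2. Since whole liver was sequenced, fewer cells of a type and less RNA per cell cannot be told apart.

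In steatotic livers, Cyp7b1 was the one called gene of the set. Cyp7b1, the oxysterol hydroxylase of the alternative synthesis route, ranged from 19.6 to 147 CPM in C with a median of 48.4. Its level was 33.7, 14.1, 19.1, 18.3 and 7.72 CPM in the 5 S livers. It was 38.1, 29.1, 56.1, 25.0 and 69.5 CPM in the 5 NS livers. The 4 BW livers of S were below every C liver, the 33.7 CPM of the SM2 animal lay within the range of C, and so did all NS livers. The difference of S from C was -1.74 ± 0.47 on the log2 scale (SE), 3.34-fold lower, with an adjusted p of 0.0497 in edgeR's quasi-likelihood test. S against NS differed by -1.23 ± 0.48, which did not pass (edgeR adjusted p = 0.393).

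Cyp27a1, the mitochondrial sterol hydroxylase that opens the alternative route, was lower by a smaller and more even margin. C livers held 744 to 1067 CPM with a median of 881, the 5 NS livers 867, 713, 531, 845 and 717 CPM, and the 5 S livers 807, 485, 555, 587 and 426 CPM. In S, 4 of 5 animals were below every C animal, and the exception was again the SM2 liver. The difference of S from C, -0.63 ± 0.17, passed the adjusted p (0.0502, edgeR) but at 1.55-fold stayed under the fold limit. NS lay between the other groups, with -0.27 ± 0.17 against C (edgeR adjusted p = 0.703).

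**Figure D1:**
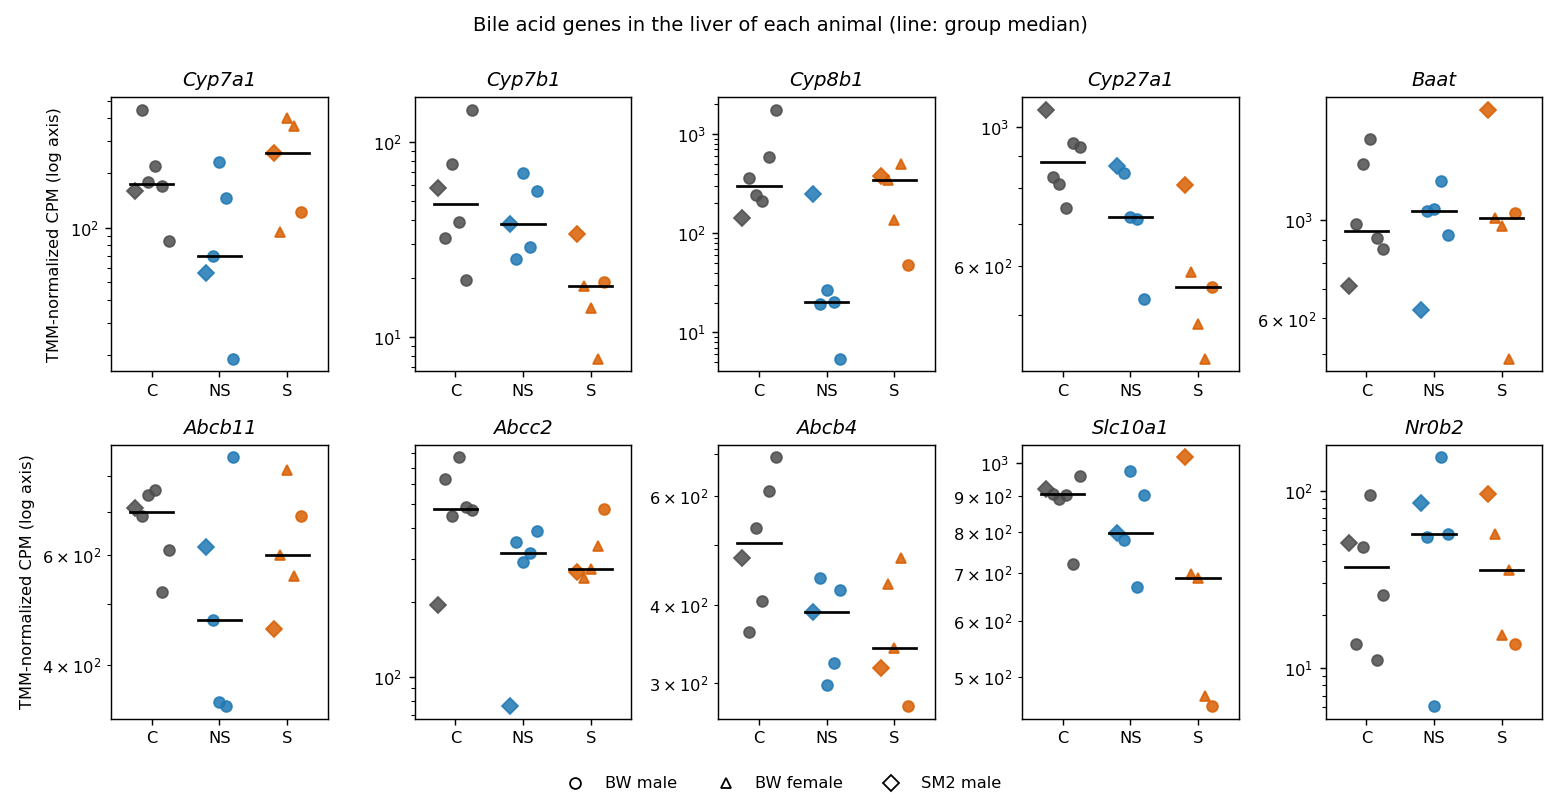
TMM-scaled CPM (log axis) of the 10 bile acid genes in each liver, by group (C, NS, S), with points marked by stock and sex. Cyp8b1 in the 4 BW animals of NS sits at 5.43 to 26.9 CPM, below every other liver, and Cyp7b1 and Cyp27a1 are lowest in S.

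Counted over the set, 1 of 10 genes was called between S and C, beside 4.06% of all tested genes, and 2 of 10 passed the adjusted p at any fold, beside 10.8%. The median difference of the 10 genes was -0.44 on the log2 scale, and that of all tested genes was 0.10. No gene of the set had S and C ranges that were fully apart, a state that 4.19% of tested genes reached. Within the BW stock the ranges of S and C were apart for Cyp7b1, Cyp27a1 and Slc10a1, all lower in S, beside 8.84% of tested genes.

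The S calls moved with the sex covariate and with single animals. With sex as a covariate, Cyp7b1 differed between S and C by -1.23 ± 0.63 (edgeR adjusted p = 0.258) and Cyp27a1 by -0.38 ± 0.22 (edgeR adjusted p = 0.320). Females were only in S, so this fit sets the 2 S males, among them SM2 animal 10880, against C. Males alone gave the same differences. A part of sex cannot be told apart from the loss of animals. S females held 14.1, 18.3 and 7.72 CPM of Cyp7b1 and S males 33.7 and 19.1 CPM. The Cyp7b1 call was also lost without C animal 36007, whose 147 CPM was the highest of all (-1.28, edgeR adjusted p = 0.115), and without C animal 35975 (-1.67, edgeR adjusted p = 0.102). Cyp27a1 missed the limit without C animal 36007 (edgeR adjusted p = 0.103) or S animal 35982 (edgeR adjusted p = 0.103). In BW animals alone, S held the 3 females and male 36016. There Cyp7b1 was called (-2.10 ± 0.54, edgeR adjusted p = 0.0461) and Cyp27a1 passed the adjusted p (-0.73 ± 0.16, edgeR adjusted p = 0.0319), beside 4.95 and 12.6% of genes under those rules.

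In livers fed HFD without steatosis the widest separation from C was that of Cyp8b1, the sterol hydroxylase that sets the share of cholic acid in the pool. C livers ranged from 144 to 1768 CPM with a median of 301. The 4 BW animals of NS held 20.4, 5.43, 19.4 and 26.9 CPM, and the SM2 animal, 10865, held 248 CPM. The 5 S livers held 382, 136, 48.1, 346 and 505 CPM. Every BW liver of NS was thus below every other liver of the study, while the SM2 liver of NS lay within the range of C and of S.

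With both stocks in the fit, Cyp8b1 in NS differed from C by -3.11 ± 0.94 (8.65-fold lower), which did not pass the adjustment (edgeR adjusted p = 0.402). In BW animals alone the difference was -5.17 ± 0.85, 36.0-fold lower, and it was called (edgeR adjusted p = 0.0358), beside 0.0892% of genes. Leaving out only animal 10865 gave -4.94 ± 0.87 (edgeR adjusted p = 0.0602), and leaving out only C animal 36007, the highest liver, gave -2.28 ± 0.85, 4.85-fold lower (edgeR adjusted p = 0.723). DESeq2 on all animals gave -3.11 with an adjusted p of 0.0634, beside 0.419% of genes called by DESeq2. The stocks' own differences in one model were -5.15 in BW and 0.79 in SM2, the latter from 1 animal a group. The difference between them, 5.93 ± 1.84, did not pass over all genes (edgeR adjusted p = 0.449, beside 0.0396% of genes called), and this model was added after the values had been seen.

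Steatotic and non-steatotic livers on the same diet differed in Cyp8b1 by 2.15 ± 0.92, higher in S (edgeR adjusted p = 0.418). In BW animals alone it was 3.85 ± 0.81 (edgeR adjusted p = 0.113), with 48.1 to 505 CPM in S and 5.43 to 26.9 CPM in NS and no overlap, beside 5.34% of tested genes whose BW ranges were apart. The 48.1 CPM was the BW male of S, and the 3 females held 136 to 505 CPM. With sex as a covariate, the Cyp8b1 difference of S from NS was 1.75 ± 1.12 (edgeR adjusted p = 0.539). Cyp7b1 was the other gene of the set with BW ranges apart, lower in S at 7.72 to 19.1 CPM against 25.0 to 69.5 CPM in NS. Cyp8b1 in S against C gave -0.96 ± 0.86 (edgeR adjusted p = 0.518), with an interval of -2.64 to 0.72 that holds both a large drop and a small rise. Without C animal 36007 it was -0.13 (edgeR adjusted p = 0.948), and without NS animal 10865 the difference of S from NS was 3.98 (edgeR adjusted p = 0.201).

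Cyp7a1, the rate-limiting enzyme of the classical route, was lowest on average in NS but with broad overlap. C livers held 84.6 to 446 CPM with a median of 174. The 5 NS livers held 56.5, 147, 19.1, 70.3 and 230 CPM, and the 5 S livers 259, 399, 122, 94.6 and 363 CPM. Values of all 3 groups interleaved between 84.6 and 230 CPM. On average Cyp7a1 was 2.01-fold lower for NS against C (edgeR adjusted p = 0.650). The log2 differences were 1.24 ± 0.56 for S against NS (edgeR adjusted p = 0.436) and 0.24 ± 0.53 for S against C (edgeR adjusted p = 0.819). The interval of S against C, -0.80 to 1.27, leaves room for a difference of either sign.

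**Figure D2:**
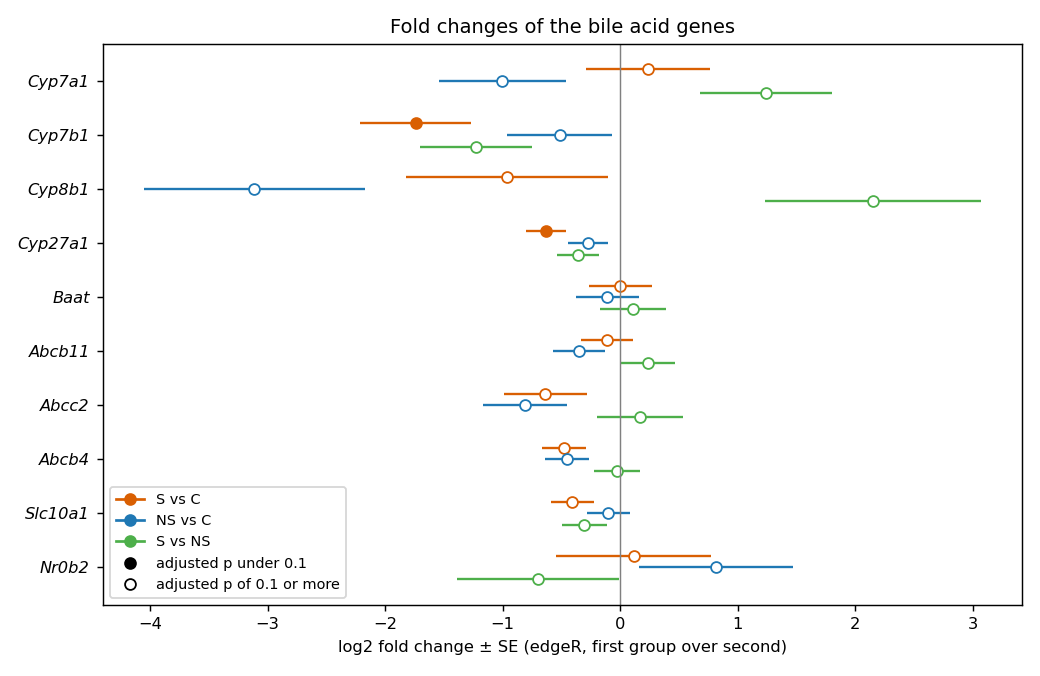
Log2 fold changes of the 10 genes (points) with their standard errors (bars) for S against C, NS against C and S against NS, from edgeR on all 16 animals. Filled points pass an adjusted p of 0.1: Cyp7b1 at -1.74 and Cyp27a1 at -0.63, both in S against C.

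Between NS and C, 0 of 10 genes were called in edgeR, beside 0.0712% of all tested genes, with 3 of 10 at an unadjusted p below 0.05 (Cyp8b1, Abcc2 and Abcb4, all lower in NS) beside 8.29%, and 1 of 10 called by DESeq2 beside 0.419%. Between S and NS, 0 of 10 were called in edgeR, beside 0.00791%, with 3 of 10 at an unadjusted p below 0.05 (Cyp7a1 and Cyp8b1 higher and Cyp7b1 lower in S) beside 10.9%, and 0 of 10 called by DESeq2 beside 0.562%. Neither pair had a gene of the set with ranges fully apart, beside 0.989% of tested genes for NS and C and 1.18% for S and NS. The median difference of the set was -0.40 in NS against C and 0.04 in S against NS, and that of all tested genes was 0.01 and 0.04.

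Baat, which joins bile acids to taurine or glycine, showed no shift between groups that the spread allowed to be seen. Means were 1052 ± 308 CPM in C (SD, n = 6), 975 ± 223 in NS (n = 5) and 1053 ± 458 in S (n = 5). S against C differed by 0.00 ± 0.27 with an interval of -0.53 to 0.53 (edgeR adjusted p = 0.997). The S group held both the highest liver, the SM2 male at 1768 CPM, and the lowest, female 35990 at 487 CPM.

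Among the canalicular pumps, Abcb11, the bile salt export pump, differed between groups by less than its spread allowed to be called. It measured 673 ± 91.0 CPM in C (SD, n = 6), 528 ± 215 in NS (n = 5) and 624 ± 137 in S (n = 5). Its interval for S against C was -0.54 to 0.32 (edgeR adjusted p = 0.799) and for NS against C -0.78 to 0.09 (edgeR adjusted p = 0.706). In NS it spread from 344 to 857 CPM, a wider range than the 522 to 761 CPM of C.

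Abcc2, the export pump for bilirubin glucuronides and other conjugates, was 500 ± 194 CPM in C, 285 ± 122 in NS and 321 ± 93.6 in S (SD, n = 6, 5 and 5). C livers ranged from 195 to 772 CPM with a median of 477, and the C minimum was the SM2 animal. NS livers held 76.3, 317, 388, 351 and 292 CPM and S livers 265, 274, 477, 250 and 338 CPM. All BW livers of NS, at 292 to 388 CPM, were below all BW livers of C, at 448 to 772 CPM, so that with Cyp8b1 2 of 10 genes had BW ranges apart, beside 2.29% of tested genes. NS against C gave -0.81 ± 0.35 (edgeR adjusted p = 0.594) and S against C -0.64 ± 0.35 (edgeR adjusted p = 0.276). In BW animals alone S against C was -0.74 ± 0.22 (edgeR adjusted p = 0.0613) and NS against C -0.75 ± 0.22 (edgeR adjusted p = 0.419). With sex as a covariate S against C was -0.43 ± 0.49 (edgeR adjusted p = 0.642).

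Abcb4, the phospholipid floppase that supplies phosphatidylcholine to bile, had nearly equal differences from C in both HFD groups. It was 514 ± 125 CPM in C, 375 ± 62.5 in NS and 369 ± 83.8 in S (SD, n = 6, 5 and 5). NS against C was -0.45 ± 0.19 (edgeR adjusted p = 0.580) and S against C -0.48 ± 0.19 (edgeR adjusted p = 0.139). S against NS was -0.02 ± 0.20 with an interval of -0.41 to 0.36. With sex as a covariate, S against C grew to -0.80 ± 0.25 (edgeR adjusted p = 0.0764), where 9.75% of genes passed.

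Slc10a1, the sodium-taurocholate uptake carrier of the basolateral membrane, was 883 ± 82.7 CPM in C, 824 ± 117 in NS and 666 ± 229 in S (SD, n = 6, 5 and 5). The 5 S livers held 1019, 689, 455, 698 and 470.0 CPM. The SM2 animal had the highest S value, above all of C, and the 4 BW livers lay below the C minimum of 722 CPM. S against C was -0.41 ± 0.19 over all animals (edgeR adjusted p = 0.196). It passed the adjusted p at 1.52-fold in BW animals alone (-0.60 ± 0.17, edgeR adjusted p = 0.0612) and without S animal 10880 (-0.61 ± 0.16, edgeR adjusted p = 0.0449).

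Nr0b2 encodes SHP, the repressor through which FXR lowers Cyp7a1 and Cyp8b1. C livers held 11.1 to 94.3 CPM with a median of 37.1. The 5 NS livers held 84.8, 155, 56.8, 54.6 and 6.11 CPM, and the 5 S livers 96.4, 15.4, 13.7, 57.3 and 35.7 CPM. The highest and the lowest liver of the study were both in NS, and the groups overlapped throughout. NS against C was 0.81 ± 0.66 (edgeR adjusted p = 0.776) and S against C 0.11 ± 0.66 (edgeR adjusted p = 0.939), with an interval of -1.18 to 1.41.

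With NS and S pooled, HFD livers against C gave 0 of 10 calls in edgeR, beside 0.894% of all tested genes, with 5 of 10 at an unadjusted p below 0.05 beside 17.9%, all lower on HFD: Cyp7b1, Cyp8b1, Cyp27a1, Abcc2 and Abcb4. The comparison uses the same C animals as those above. Cyp8b1 differed by -2.04 ± 0.71 (edgeR adjusted p = 0.155) and Cyp7b1 by -1.13 ± 0.37 (edgeR adjusted p = 0.143). DESeq2 called both, with adjusted p of 0.0858 for Cyp8b1 and 0.0492 for Cyp7b1, beside 1.9% of genes. With stock as a covariate edgeR called both (adjusted p = 0.0605 and 0.0988), beside 1.83%, and in BW animals alone it called Cyp8b1 (-3.24 ± 0.59, adjusted p = 0.0241), beside 0.624%. With sex as a covariate edgeR called neither, beside 1.8% of genes. There Cyp8b1 differed by -2.24 ± 0.89 (edgeR adjusted p = 0.182) and Cyp7b1 by -0.87 ± 0.42 (edgeR adjusted p = 0.261). Males alone did not give these calls either (edgeR adjusted p = 0.217 and 0.290). Single animals moved these calls in edgeR: Cyp8b1 was called without NS animal 10865 (-2.95, adjusted p = 0.0265) but was 2.31-fold lower and not called without C animal 36007 (-1.21, adjusted p = 0.440), and Cyp7b1 was called without S animal 10880 (-1.30, adjusted p = 0.0991).

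Stock was compared across the groups with diet group in the model, 3 SM2 animals against 13 BW animals. Abcc2 was lower in SM2 by -1.22 ± 0.29 (edgeR adjusted p = 0.00946), and was the 1 of 10 genes called, beside 10.8% of all tested genes. SM2 livers held 195, 76.3 and 265 CPM and BW livers 250.4 to 772 CPM, so 1 SM2 liver, that of S, lay within the BW range. The call was lost without animal 10865 (-0.87, edgeR adjusted p = 0.104). Cyp27a1 was higher in SM2 by 0.43 ± 0.14 (edgeR adjusted p = 0.05004), so that 2 of 10 passed at any fold, beside 21.8%. It missed the limit without NS animal 10865 (edgeR adjusted p = 0.115) or S animal 10880 (edgeR adjusted p = 0.274), whereas Cyp8b1 came to pass, higher in SM2, without C animal 10876 (2.68 ± 0.86, edgeR adjusted p = 0.0519).

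Within S, females against males gave 0 of 10 calls in edgeR, beside 0.388% of all tested genes, with 1 of 10, Baat, at an unadjusted p below 0.05 beside 11.2% (-0.77 ± 0.37, edgeR adjusted p = 0.443). DESeq2 was not run on this comparison. Cyp7b1 was lower in females by -0.99 ± 0.65 (edgeR adjusted p = 0.612).

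The 10 genes differed widely in how far animals of one group lay apart. The within-group SD of log2 CPM was 1.57 for Cyp8b1, 1.39 for Nr0b2 and 1.04 for Cyp7a1, against a median of 0.30 over the 5044 genes with a mean of at least 20 CPM. Of those genes, 0.852% were as variable as Cyp8b1, 1.29% as Nr0b2 and 2.6% as Cyp7a1. Cyp7b1 and Abcc2 followed at 0.83 and 0.71. The remaining pumps, the uptake carrier, Baat and Cyp27a1 lay between 0.27 and 0.49, where 16.5 to 58.9% of genes were as variable. Cyp8b1, Nr0b2 and Cyp7a1 were thus the most variable of the set, and Cyp27a1, Slc10a1 and Abcb4 the least. The cause of these spreads was not tested.

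**Figure D3:**
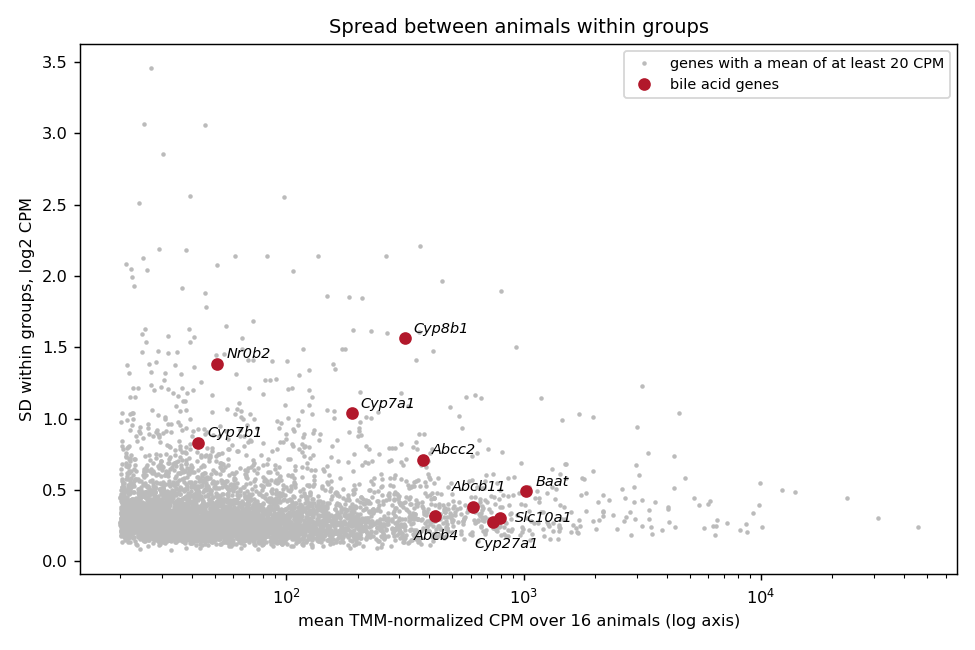
Within-group SD of log2 CPM of each of the 10 genes (labelled points) against its mean CPM (log axis), with grey points for genes with a mean of at least 20 CPM. Cyp8b1 (1.57), Nr0b2 (1.39) and Cyp7a1 (1.04) lie far above the median of 0.30.

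Since SHP represses synthesis, the level of Nr0b2 was set against 4 genes of the set, and Cyp7a1 against Cyp8b1, giving 5 relations. Nr0b2 and Cyp7a1 had Pearson r = -0.33 (permutation p = 0.204, adjusted 0.511) and Spearman rho = -0.32 (permutation p = 0.234, adjusted 0.610) over 16 animals, with r = -0.31 without the 2 animals farthest from the median and r = -0.36 in the 13 BW animals. Nr0b2 and Cyp8b1 had r = -0.10 (permutation p = 0.713, adjusted 0.892) and rho = -0.15 (permutation p = 0.572, adjusted 0.874), with r = -0.22 without the 2 farthest and -0.21 in BW. The sign of r for Nr0b2 and Cyp8b1 changed after removing group means (0.09) and in the 10 HFD livers (0.10).

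Cyp7a1 and Cyp8b1, which share regulation by SHP and the FXR axis, had r = 0.45 (permutation p = 0.0850, adjusted 0.425) and rho = 0.31 (permutation p = 0.244, adjusted 0.610). In BW r was 0.49, but without the 2 animals farthest from the median it was 0.18, and after removing group means it was 0.08. Nr0b2 had r = -0.02 with Abcb11 (permutation p = 0.947, adjusted 0.947) and 0.13 with Slc10a1 (permutation p = 0.642, adjusted 0.892), with rho = -0.06 (permutation p = 0.830, adjusted 0.874) and 0.04 (permutation p = 0.874, adjusted 0.874). Without the 2 farthest animals these r were -0.51 and 0.31, and in BW 0.03 and 0.00. None of the 5 relations passed after adjustment.

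**Figure D4:**
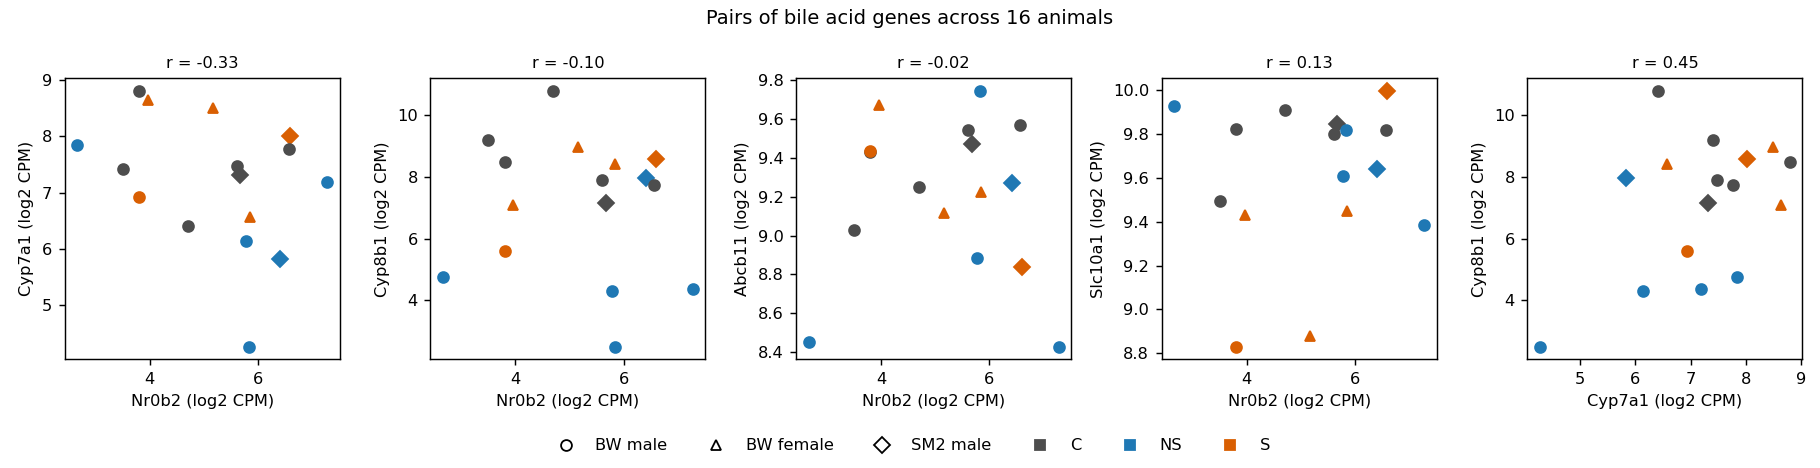
Log2 CPM of paired genes in the 16 livers, Nr0b2 against Cyp7a1, Cyp8b1, Abcb11 and Slc10a1, and Cyp7a1 against Cyp8b1, coloured by group and shaped by stock and sex. The clouds are loose (r of -0.33, -0.10, -0.02, 0.13 and 0.45), and the BW livers of NS lie at the bottom of the Cyp8b1 axes.

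Of the wider pathway, 53 further genes were tested in 4 lists. In S against C, 5 of these 53 passed the adjusted p at any fold, all lower in S, beside 5.36% of all tested genes that were lower by this rule. Among other synthesis genes it was 1 of 14, Por, the electron donor of microsomal P450 enzymes (-1.13 ± 0.37, edgeR adjusted p = 0.0836). Among other transporters it was 1 of 16, Abcb1a, an export pump for drugs (-0.58 ± 0.20, edgeR adjusted p = 0.0962). Among regulators it was 1 of 20, Nr1i3, the xenobiotic receptor CAR (-0.93 ± 0.29, edgeR adjusted p = 0.0729). In the hydroxylation and sulfation list it was 2 of 3: the P450 gene Cyp3a13 (-1.11 ± 0.30, edgeR adjusted p = 0.0485) and Papss2, which makes the sulfate donor (-1.07 ± 0.18, edgeR adjusted p = 0.0125).

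Papss2 had the smallest adjusted p of these, at 654 ± 143 CPM in C (SD, n = 6), 524 ± 101 in NS (n = 5) and 312 ± 51.5 in S (n = 5). Every S liver, at most 386 CPM, was below every C liver, at least 436 CPM, beside 4.19% of tested genes with S and C ranges apart. With sex as a covariate Por (edgeR adjusted p = 0.173), Nr1i3 (0.259) and Cyp3a13 (0.241) no longer passed, and in BW animals alone Abcb1a did not (-0.43, edgeR adjusted p = 0.213). Without C animal 36007 none of Por, Abcb1a, Nr1i3 and Cyp3a13 passed (edgeR adjusted p = 0.180, 0.171, 0.110 and 0.111), and Por, Abcb1a and Nr1i3 were also lost without several other single animals.

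Nr1h4 and other fixed genes around bile acid synthesis showed differences that did not pass. Nr1h4, encoding FXR, was 111 ± 11.8 CPM in C, 111 ± 43.3 in NS and 122 ± 28.8 in S (SD, n = 6, 5 and 5), and S against C was 0.13 (edgeR adjusted p = 0.733). Fgfr4 and Klb, the receptor and co-receptor for the gut hormone that represses synthesis, gave -0.18 (edgeR adjusted p = 0.393) and -0.64 ± 0.34 (edgeR adjusted p = 0.258). Hnf4a, a hepatocyte transcription factor, gave 0.01 (edgeR adjusted p = 0.991), and Hsd3b7, an enzyme that acts on the sterol ring, -0.11 (edgeR adjusted p = 0.747).

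On the basolateral export side, Abcc3 gave -0.14 between S and C (edgeR adjusted p = 0.781) and Slc51b had no counts in 13 of 16 livers. Abcc4, a pump that exports bile acids to blood, was 30.1 ± 10.4 CPM in C, 18.2 ± 8.01 in NS and 45.4 ± 25.6 in S (SD, n = 6, 5 and 5), and S against NS was 1.32 (edgeR adjusted p = 0.356). It was far lower in the SM2 stock (-2.02 ± 0.24, edgeR adjusted p = 3.1e-05). Within BW, the S male held 35.3 CPM, the 3 S females 44.1 to 79.7 CPM and NS livers, all male, 18.7 to 25.0 CPM. S against NS within BW passed (1.34 ± 0.22, edgeR adjusted p = 0.0663), beside 0.146% of genes called. With stock as a covariate on all 16 animals it passed too (2.46-fold higher, edgeR adjusted p = 0.0317), beside 0.135%. S against C of Abcc4 passed at under 2-fold with that covariate (0.56 ± 0.19, edgeR adjusted p = 0.0781), beside 15.9% at any fold, and in BW alone (0.67 ± 0.21, edgeR adjusted p = 0.0697). In NS against C and in S against NS, 0 of the 53 genes passed in edgeR without covariates, with 7 of 53 in each at an unadjusted p below 0.05, beside 8.29 and 10.9% of all tested genes. Among the pathway genes named here DESeq2 passed Papss2 in S against NS (-0.74, adjusted p = 0.0301).

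Markers of the cells a liver sample can hold were read beside these results, at an adjusted p below 0.1 and any fold, which 10.8% of all tested genes passed between S and C. Of 11 hepatocyte markers tested, 5 passed between S and C, with Fga, Fgb, Hp and Ttr lower and Apoa1 higher, and their summed level was 98680 to 124500 CPM in C, 94760 to 129400 in NS and 84690 to 112600 in S. Of 8 cholangiocyte markers 0 passed in edgeR, with 2 at an unadjusted p below 0.05 beside 23.8% of all tested genes, and their sum was 15.4 to 32.9 CPM in C, 14.1 to 33.6 in NS and 20.2 to 68.2 in S. Of 9 stellate cell markers Col1a1 was higher and Dcn lower, with sums of 300 to 566 CPM in C, 216 to 419 in NS and 255 to 2445 in S. The median sums were 458 CPM in C, 328 in NS and 336.5 in S. An S liver held 2058 CPM of Col1a1, whose median over all livers was 7.44 CPM. Of 9 Kupffer and myeloid markers only S100a8 and S100a9 passed, both lower. The list summed to 321 to 601 CPM in C, 227 to 596 in NS and 156 to 979.7 in S. Its median sum was highest in S, at 364 CPM in C, 340 in NS and 479 in S. Endothelial markers gave 0 of 6 in edgeR, with 0 at an unadjusted p below 0.05, and lymphocyte markers 1 of 7 (Cd79b, higher), the latter summing to 7.07 to 23.9 CPM in C, 12.2 to 16.8 in NS and 14.1 to 45.7 in S. The duct keratin gene Krt19 was at most 2.94 CPM and had no counts in 1 liver, while Adgre1 of macrophages had none in 1, Des of stellate cells in 4 and Ms4a1 of B cells in 4. In NS against C and in S against NS, no list of markers had a gene past the adjusted p in edgeR.

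Zonation markers were read in the same way. Of 9 pericentral markers 1 passed between S and C (Slc1a2, lower), with median sums of 36370 CPM in C, 31220 in NS and 21430 in S, and of 10 periportal markers 3 passed (Ass1, Cyp2f2 and Gls2, all lower), with median sums of 25740, 17320 and 17790 CPM, beside the same 10.8% of all tested genes. The part of cell makeup and zonation in the Cyp7b1, Cyp27a1 and Cyp8b1 differences was not tested. Of 16 circadian clock genes, 0 passed between S and C in edgeR, with 2 at an unadjusted p below 0.05 beside 23.8% of all tested genes. Between single livers their spread was uneven. It ran from 0.222 to 12.55 CPM for Arntl (2 to 103 counts) and from 2.96 to 48.8 CPM for Cry1. For Cry2 it was 15.2 to 41.1 CPM. Whether clock phase differed between animals was not tested. The hour of tissue collection is not given in the sources used here, and Cyp7a1 and Nr0b2 are known to cycle over the day.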

How the data were processed

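Liver RNA of 16 deer mice was sequenced from strand-marking libraries. The authors aligned reads with STAR 2.7.2 and deposited raw counts per gene from featureCounts, unique reads only, whose strand setting is not given in the sources used here. The table was used as deposited, with 0 columns that match no sample and 0 rows that name no gene. No 2 animals of a group agreed within sampling noise (lowest chi-square per degree of freedom 23.6).

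The filter kept 12639 genes that reached 0.5 CPM in 1 or more animals, and these were TMM-scaled and fitted with edgeR 4.0.16 (R 4.3.3) quasi-likelihood on all 16 animals in 3 groups, with Benjamini-Hochberg adjustment. Intervals are 1.96 SE. SE is the log2 fold change over the square root of F. Correlations used log2 CPM with a prior count of 2 and 100000 permutations (exact for 6 animals). The code was tested on simulated data with 200 changed genes. The alternatives comprised other filters and thresholds, RLE size factors, DESeq2 1.42.0, sex or stock as covariates, BW or male animals alone, and leaving out each animal. The stock interaction and HFD-only correlations were added after seeing the data.

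The 10 members, always named, and the pathway and marker lists were chosen with earlier results of these data known. Further pathway genes are named where they passed between S and C or were fixed as central. No coordinates are printed, because the gene table at hand and the authors' alignment differ in build. Whether reads of overlapping antisense genes were kept apart is not known.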

Additional observations from a re-analysis of the deposited data

Results flagged for a closer look

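Dixon's test was applied to the CPM of each of the 10 genes in each of the 3 groups, 30 groups of values in all. It marked an animal in 4 of them. Its chance rate of about 1 in 20 holds for normally distributed values, which CPM on a linear scale need not be. The 4 marks are therefore not read as an excess over chance. Cyp8b1 in NS held the clearest one: the SM2 animal 10865 had 248 CPM, the next liver 26.9 CPM, and its gap took 0.912 of the range. Cyp8b1 in C had animal 36007 at 1768 CPM, with the next liver at 595 CPM (0.722 of the range). Cyp7a1 in C had animal 35972 at 446 CPM, with the next liver at 219 CPM (0.628 of the range, just past the critical value). Slc10a1 in C had animal 36001 lowest at 722 CPM, with the next liver at 891 CPM. Animal 36007 was also the C liver with the highest Cyp7b1, 147 CPM.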

How the results depend on the processing

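The number of the 10 genes called between S and C, 1 as reported, was 0 with sex as a covariate and 0 in males alone (6.08 and 5.44% of all genes, both resting on the same S males), 2 at any fold (10.8%) and 0 to 1 when each animal was left out. Between NS and C it was 0 as reported, 1 by DESeq2 (0.419% of all genes), 1 in BW animals alone (0.0892%) and 0 to 1 when each animal was left out. For pooled HFD against C it was 0 as reported, 2 by DESeq2 (1.9%), 2 with stock as a covariate (1.83%), 1 in BW animals alone (0.624%) and 0 to 1 when each animal was left out. Between the stocks it was 1 as reported, 2 at any fold (21.8%) and 0 to 2 when each animal was left out. It was 0 in S against NS and in S females against males under every alternative run. The correlation of Nr0b2 and Abcb11, -0.018, was 0.012 on CPM by total count. When each animal was left out, r ranged from -0.375 to 0.260 for Nr0b2 with Abcb11, from -0.298 to 0.046 with Cyp8b1, from -0.050 to 0.306 with Slc10a1, and from 0.121 to 0.594 for Cyp7a1 with Cyp8b1. No called value changed sign under any alternative run. Over all genes, DESeq2 called 53 against 9 in edgeR for NS against C, 71 against 1 for S against NS and 240 against 113 for HFD against C. The cause of these shifts was not tested. No paired analysis was possible because replicate numbers were given in accession order and pair no animals.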

Other observations

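For 4 of the genes, the 3 genes whose log2 CPM followed them most closely over the 16 livers were picked by Pearson r among 10326 genes with a mean of at least 1 CPM. This is a description: the animals share diet, stock and library, and the best of many genes always correlates well. Cyp7a1 went with Chtf18 (r = 0.79), the circadian repressor gene Nfil3 (0.76) and Trp53inp1 (0.73). Cyp8b1 went with the aminoacyl-tRNA synthetase genes Cars (0.75) and Sars (0.72) and with Rora (0.71), a nuclear receptor of the clock and lipid metabolism. Abcb11 went with Ppm1k (0.79), Scarb2 (0.77) and D10Wsu102e (0.74). Nr0b2 went with Zfp866 (0.83), the receptor gene Erbb3 (0.80) and Msl3 (0.80). Without the 2 animals farthest from the median of the gene followed, r over the 12 pairs ranged from 0.51 (Abcb11 and Scarb2) to 0.91 (Cyp8b1 and Rora), with 0.53 for Cyp7a1 and Nfil3.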
